A study of Homo sapiens with 14 samples.

Results

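The genes described here act in the G2 phase of the cell cycle and in mitosis. A list of 54 such genes was looked up by symbol in the annotation of an expression array, and 43 of them had a named probe set, of 14884 gene symbols named on the array. Each of the 43 had 1 probe set. UBE2C, TPX2, NUF2, CENPF, TACC3, ANP32E, TUBB4B, NCAPD2, DLGAP5, ANLN and CENPE carried no name in that annotation and were not analysed here. The RNA was from LNCaP, an established prostate cancer line that grows in response to androgen, and was read on Affymetrix Human Gene 2.0 ST arrays. CTCF siRNA cells were given pooled small interfering RNAs (siRNAs) at 20 nM against CTCF, the zinc-finger protein that binds borders between chromatin domains, and were harvested after 24, 72 or 144 h. Control siRNA cells were given a non-targeting pool at 20 nM and were harvested at the same times. Untransfected cells formed a further group, for which the labels state no harvest time, although the codes in their descriptions start with 72, like the codes of the 72 h siRNA cells. Whether the 24 and 144 h differences from them also hold a difference in time was not tested. For 144 h the cells of both siRNAs were passaged at 72 h and received the siRNA anew, so later time, passage and repeat transfection cannot be told apart. Each of the 7 groups holds 2 arrays, described as biological duplicates. All comparisons concern a single cell line.

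A cell that has copied its DNA passes through G2 and then divides in mitosis. Cyclin B with its kinase CDK1 starts mitosis, the Aurora and Polo-like kinases build the spindle, the spindle checkpoint holds the chromosomes until all are attached, and the anaphase-promoting complex with CDC20 then marks cyclin B and securin for destruction. The genes of this machinery are transcribed together late in the cycle. Quiescent cells hold them off through the DREAM complex, and dividing cells raise them through MYBL2 and FOXM1. Their transcripts are widely used as a measure of how many cells in a population are cycling. In RNA from whole cultures, fewer cells in G2 or mitosis and less RNA per cell of each gene cannot be told apart.

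The values are log2 expression values after robust multi-array averaging (RMA), and each difference is the first-named group minus the second on the log2 scale. Replicate arrays of a group correlated at r = 0.992 to 0.994 over the 16098 named probe sets. CTCF itself was 76.1%, 69.7% and 78.8% lower in CTCF siRNA cells than in control siRNA cells at 24, 72 and 144 h (limma adjusted p = 0.00573, 0.00618 and 0.000137). Of 10 markers of prostate luminal cells 7 were measured. Their summed log2 values per array ran from 57.3 to 58.8 in CTCF siRNA cells, from 58.1 to 59.1 in control siRNA cells and from 57.0 to 57.9 in untransfected cells. Of the markers of other cell types the lowest of each list were KRT5, a basal cell keratin, at a mean log2 value of 2.38, DCN, a stromal proteoglycan, at 1.48 and LYZ, lysozyme of myeloid cells, at 2.93. The highest were DST, a basal cell plakin, at 5.00, LUM, a stromal proteoglycan, at 1.95 and CD68, a lysosomal protein of macrophages that many cells express, at 5.70. The median of each array over all rows was 3.67 to 3.72, so DST and CD68 lay above it and the other 4 below it. Sums over the 4 measured basal markers ran from 13.2 to 14.4, over the 2 stromal markers from 3.16 to 4.08 and over the 3 immune markers from 10.9 to 13.3, and their part in the results was not tested.

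The G2 and mitosis genes stood higher in transfected than in untransfected cells, with either siRNA and at each time. At 24 h 40 of the 43 rose in CTCF siRNA cells against untransfected cells (limma, adjusted p under 0.05), where 5.42% of all tested probe sets rose, and 39 rose in control siRNA cells, where 3.99% of all did. The median log2 difference over the 43 genes was 1.2 in CTCF siRNA cells and 1.22 in control siRNA cells. At 72 h 12 rose in CTCF siRNA cells (1.29% of all tested) and 6 in control siRNA cells (0.248%), with medians of 0.68 and 0.76. At 144 h 34 rose in CTCF siRNA cells (6.3%) and 37 in control siRNA cells (2.04%), with medians of 0.99 and 1.16. No member fell in any of these 6 contrasts. Of all tested probe sets 3.83%, 1.93% and 4.79% fell in CTCF siRNA cells at 24, 72 and 144 h, and 3.58%, 0.23% and 2.1% in control siRNA cells. All 43 differences were positive in each contrast. The 6 contrasts share the same 2 untransfected arrays. For 34 of the 43 genes every one of the 12 siRNA arrays lay above both untransfected arrays, a pattern held by 5.59% of all tested probe sets. The other 9 were HMGB2, TOP2A, CKS1B, TMPO, CKAP2, KIF20B, TTK, CENPA and NEK2, and without replicate 2 of the 72 h CTCF siRNA arrays the count was 43. The 6 control siRNA arrays alone lay above both untransfected arrays for all 43 genes and below them for 0 (9.27% and 8.93% of all tested). Some cell type markers also passed against untransfected cells, all of them in CTCF siRNA cells. CD68 differed by 0.50 (SE 0.127, adjusted p = 0.0313) at 24 h and 1.42 (SE 0.127, adjusted p = 9.02e-05) at 144 h. FOLH1, a luminal prostate antigen, differed by -0.47 (SE 0.114, adjusted p = 0.0268) and -0.68 (SE 0.114, adjusted p = 0.00319) at these times, and KLK2, a luminal kallikrein, by 0.71 (SE 0.168, adjusted p = 0.019) at 144 h. Their part in the members' values was not tested.

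**Figure D1:**
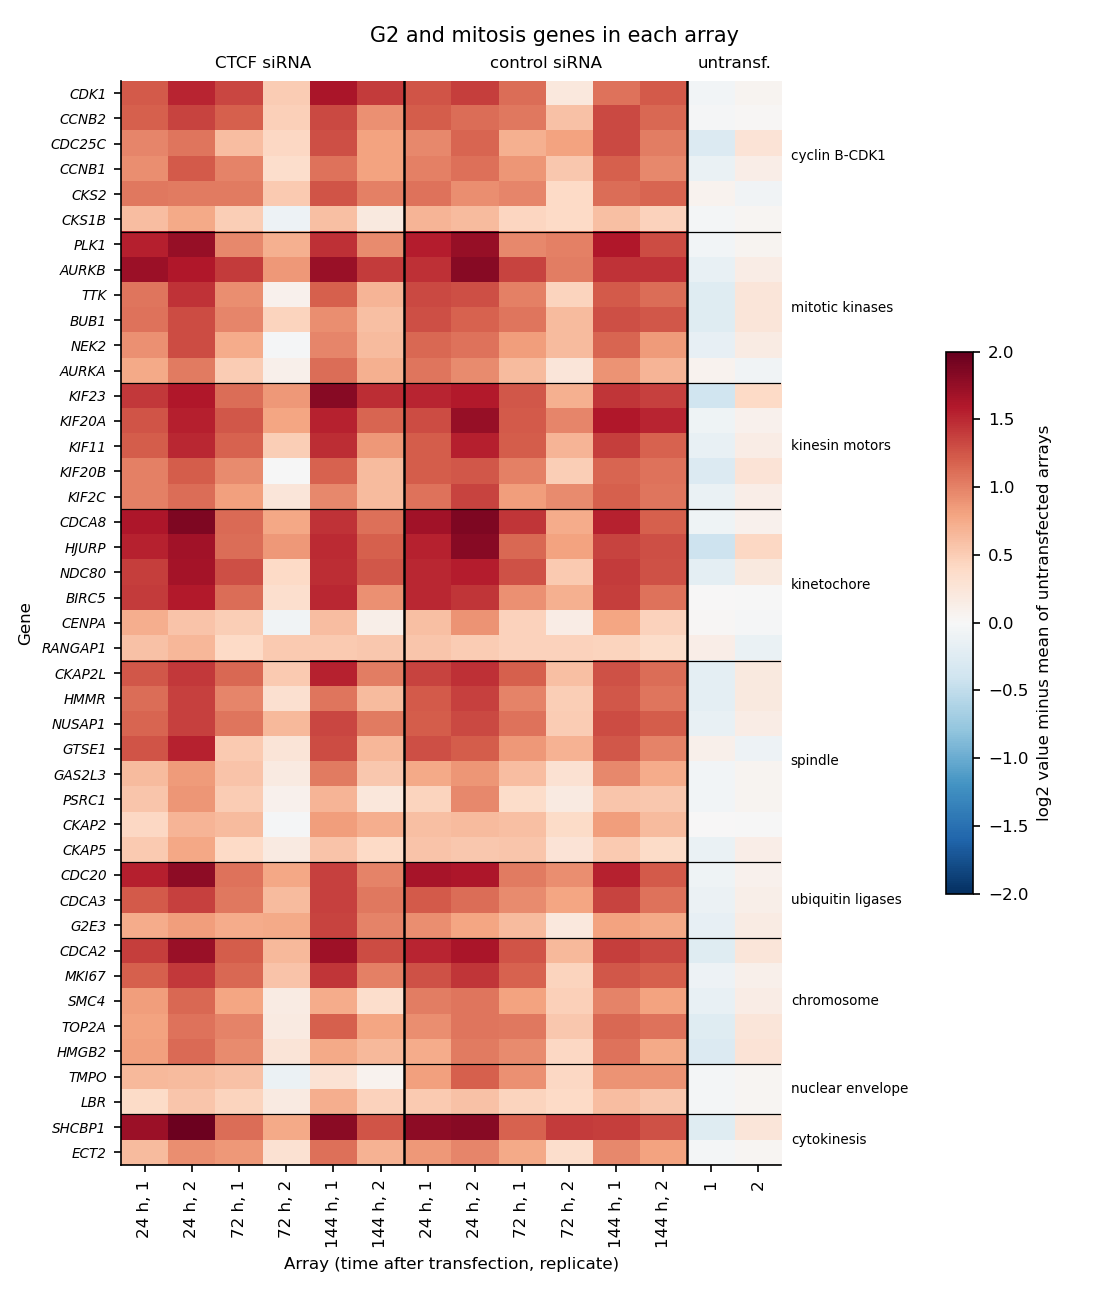
Log2 value of each of the 43 measured genes (rows, grouped by role) in each of the 14 arrays (columns) minus the mean of the 2 untransfected arrays, with red for higher and blue for lower. Nearly all siRNA columns are red, and both 72 h columns of replicate 2 are pale.

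Single arrays showed the same separation. The median over the 43 genes, relative to the mean of the untransfected arrays, was 1.06 and 1.30 at 24 h, 0.97 and 0.39 at 72 h and 1.25 and 0.80 at 144 h in the CTCF siRNA arrays. In the control siRNA arrays it was 1.21 and 1.19, 0.96 and 0.52, and 1.22 and 1.08 at these times, against -0.13 and 0.13 in untransfected cells. The median over all tested probe sets lay between -0.01 and 0.01 in each array on the same scale. The groups of siRNA and untransfected arrays did not overlap in these medians, and the 2 lowest siRNA arrays were those of replicate 2 at 72 h.

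**Figure D2:**
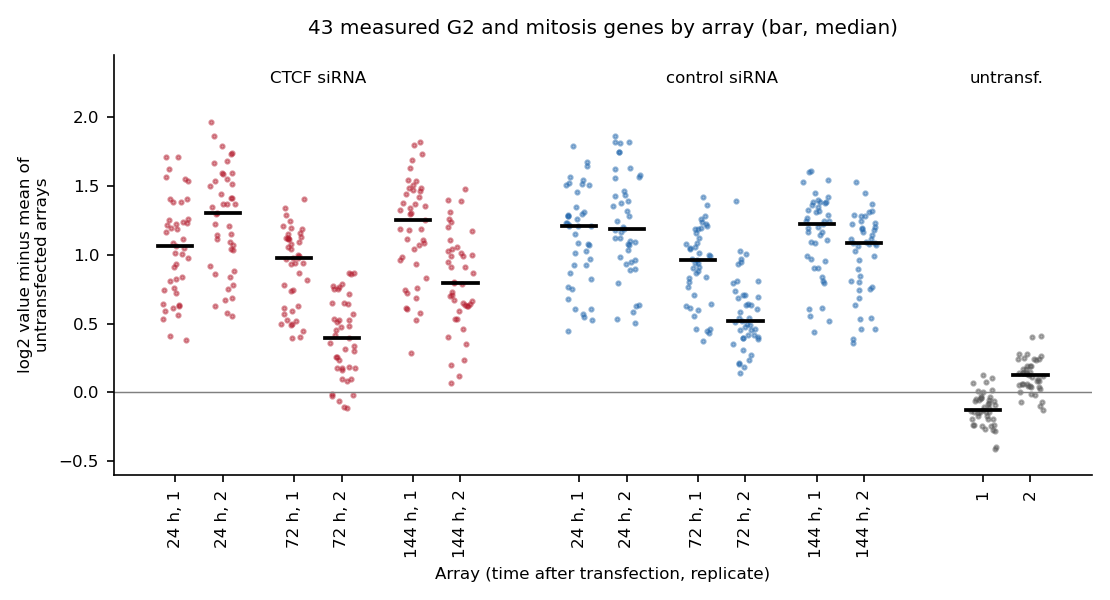
Each point is 1 of the 43 genes in 1 array, as log2 value minus the mean of the untransfected arrays, and the bar is the median of the array. The siRNA medians lie between 0.39 and 1.30, above the untransfected medians of -0.13 and 0.13, and the 72 h arrays of replicate 2 have the lowest siRNA medians.

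Promoters of G2 and mitosis genes are known for a pair of short elements, the cell cycle genes homology region (CHR), which the DREAM and MYBL2 complexes contact, and the CCAAT box, which NF-Y binds. RefSeq promoter windows (GRCh38.p14, 250 bases before to 50 after the start) were given for 38 of the 43 genes, in 47 windows. The CHR was searched as TTTGAA and the box as CCAAT, each on both strands, so that the box may also read ATTGG, and a CHR and a box can share a base. A CHR was found in 30 of 47 windows (63.8%), against 15.2% of the 35116 windows of all genes, and a CCAAT box in 34 (72.3%) against 34.6%. Windows with both made up 53.2% of the members' windows against 5.90% of all. A CHR and a box that share a base were in 4.26% against 0.120%. In the 50 bases just before the start 34.0% of the members' windows held a CHR, against 2.56% of all, and in the 50 bases upstream of those 55.3% held a CCAAT box, against 12.9%. These are matches of letters, described without a test, and some genes have several windows.

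**Figure D3:**
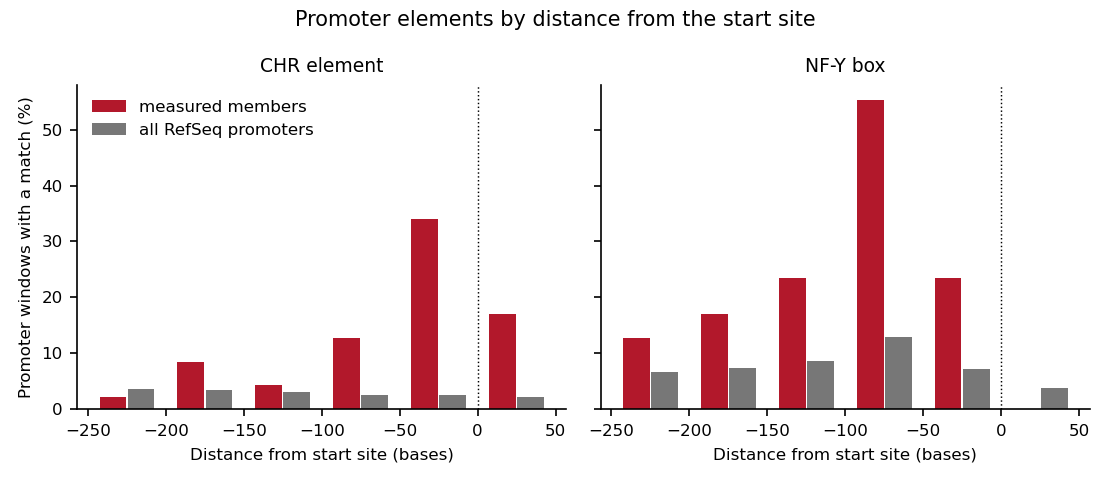
Share of promoter windows (%) with a match of the CHR (left) or the CCAAT box (right) in bins of 50 bases by distance from the start site, for the 47 windows of the measured genes (red) and all 35116 RefSeq windows (grey). The members' CHR matches peak in the 50 bases before the start (34.0%) and their CCAAT matches in the next bin upstream (55.3%).

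The promoters of the 4 members with the largest difference between control siRNA cells at 24 h and untransfected cells are shown, as examples of windows that hold both elements. A CHR was found for 27 of the 38 genes, a CCAAT box for 30 and both for 23. Each runs from 170 bases before to 30 after the start on its own strand, and capitals mark the CHR and the CCAAT boxes. They lie at chr16:46621350-46621549 (SHCBP1, minus strand), chr1:37692346-37692545 (CDCA8, plus strand), chr2:233854506-233854705 (HJURP, minus strand) and chr16:23678719-23678918 (PLK1, plus strand).
SHCBP1: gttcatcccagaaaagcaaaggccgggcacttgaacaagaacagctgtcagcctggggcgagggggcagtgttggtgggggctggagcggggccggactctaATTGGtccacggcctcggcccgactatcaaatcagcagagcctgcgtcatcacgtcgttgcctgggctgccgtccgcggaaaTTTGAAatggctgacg
CDCA8: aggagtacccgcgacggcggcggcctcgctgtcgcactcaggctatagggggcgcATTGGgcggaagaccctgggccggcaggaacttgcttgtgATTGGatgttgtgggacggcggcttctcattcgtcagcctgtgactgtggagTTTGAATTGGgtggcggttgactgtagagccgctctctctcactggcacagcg
HJURP: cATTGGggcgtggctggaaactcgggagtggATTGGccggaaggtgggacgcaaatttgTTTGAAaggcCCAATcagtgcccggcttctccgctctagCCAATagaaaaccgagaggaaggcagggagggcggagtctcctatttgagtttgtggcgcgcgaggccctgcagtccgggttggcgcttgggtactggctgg
PLK1: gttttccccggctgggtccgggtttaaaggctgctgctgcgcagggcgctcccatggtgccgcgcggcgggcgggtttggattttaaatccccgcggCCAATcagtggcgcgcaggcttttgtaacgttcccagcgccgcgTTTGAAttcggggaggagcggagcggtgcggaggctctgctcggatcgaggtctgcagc
The CHR begins 29 bases before the start in PLK1, 23 before it in CDCA8, 111 before it in HJURP and 15 bases after it in SHCBP1. PLK1 and SHCBP1 each have 1 CCAAT box in the stretch shown, CDCA8 has 3 and HJURP 4. In CDCA8 the box nearest the start shares a base with the CHR. In control siRNA cells at 24 h against untransfected cells, the median log2 difference was 1.24 over the 27 genes with a CHR in a window and 1.05 over the 11 without, and the ranges of these sets overlapped (0.53 to 1.8 and 0.56 to 1.64).

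Among cyclin B, CDK1 and their partners, all 6 measured genes rose at 24 h with either siRNA, and 5 of 6 at 144 h. CDK1 encodes the kinase that drives entry into mitosis. Its log2 values were 9.26 and 9.55 at 24 h, 9.37 and 8.55 at 72 h and 9.67 and 9.43 at 144 h in CTCF siRNA cells. With control siRNA they were 9.29 and 9.42, 9.16 and 8.25 and 9.12 and 9.26 at these times, with 7.98 and 8.09 in untransfected cells. The siRNA arrays all lay above the untransfected ones, with the 72 h arrays of replicate 2 lowest. CTCF and control siRNA arrays overlapped at 24 and 72 h, and at 144 h both CTCF siRNA arrays were the higher. The difference from untransfected cells at 24 h was 1.37 (SE 0.272, adjusted p = 0.0101) in CTCF siRNA cells and 1.32 (SE 0.272, adjusted p = 0.0133) in control siRNA cells. CCNB1, cyclin B itself, had log2 values of 8.20 and 8.49 at 24 h, 8.26 and 7.62 at 72 h and 8.36 and 8.07 at 144 h in CTCF siRNA cells. The values under control siRNA were 8.28 and 8.37, 8.15 and 7.81 and 8.47 and 8.23 at these times, with 7.14 and 7.4 in untransfected cells. It likewise had its lowest siRNA arrays in replicate 2 at 72 h and no overlap with untransfected arrays. CCNB1 was 2.11-fold and 2.08-fold the untransfected level at 24 h in CTCF and control siRNA cells, a log2 difference of 1.08 (SE 0.203, adjusted p = 0.00814) and 1.05 (SE 0.203, adjusted p = 0.00985). CKS1B, a small CDK-binding protein, had the smallest difference of this set at 24 h in control siRNA cells, 0.65 (SE 0.169, adjusted p = 0.0393).

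All 6 mitotic kinases rose at 24 h with either siRNA. PLK1, the Polo-like kinase of spindle poles and cytokinesis, had log2 values of 9.51 and 9.70 at 24 h, 8.92 and 8.67 at 72 h and 9.42 and 8.91 at 144 h in CTCF siRNA cells. Control siRNA arrays gave 9.52 and 9.70, 8.92 and 8.96 and 9.56 and 9.27 at these times, with 7.90 and 8.02 in untransfected cells. Each siRNA array lay above the untransfected ones. PLK1 was among the 6 members that rose in all 6 contrasts with untransfected cells, with 1.64 (SE 0.173, adjusted p = 0.000603) in CTCF siRNA cells and 1.66 (SE 0.173, adjusted p = 0.000619) in control siRNA cells at 24 h. AURKA, the Aurora kinase of spindle poles, had log2 values of 6.38 and 6.65 at 24 h, 6.12 and 5.71 at 72 h and 6.73 and 6.33 at 144 h in CTCF siRNA cells. Its control siRNA values were 6.69 and 6.57, 6.24 and 5.85 and 6.52 and 6.3 at these times, with 5.69 and 5.55 in untransfected cells. Its lowest siRNA array, replicate 2 of CTCF siRNA at 72 h, lay just above the higher untransfected array. AURKA rose at 24 and 144 h but had 0.30 (SE 0.159, adjusted p = 0.376) in CTCF siRNA cells and 0.43 (SE 0.159, adjusted p = 0.294) in control siRNA cells at 72 h. Its changes from 24 to 72 h and from 72 to 144 h were not called with either siRNA. AURKB, the kinase of the chromosomal passenger complex, rose in all 6 contrasts, with 1.65 (SE 0.198, adjusted p = 0.000965) in CTCF siRNA cells and 1.64 (SE 0.198, adjusted p = 0.00103) in control siRNA cells at 24 h.

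The 5 measured kinesins, motor proteins that move along spindle microtubules, all rose at 24 h with either siRNA. KIF23, the motor of the central spindle, had log2 values of 7.93 and 8.12 at 24 h, 7.64 and 7.39 at 72 h and 8.34 and 8.0 at 144 h in CTCF siRNA cells. For control siRNA they were 8.04 and 8.10, 7.76 and 7.23 and 7.95 and 7.89 at these times, with 6.12 and 6.92 in untransfected cells. Its untransfected arrays differed from each other more than those of every other member except HJURP, and lay below every siRNA array. The difference at 144 h was 1.65 (SE 0.245, adjusted p = 0.00157) in CTCF siRNA cells and 1.4 (SE 0.245, adjusted p = 0.0115) in control siRNA cells. KIF20A, a motor of the midzone in cytokinesis, rose in all 6 contrasts, with 1.35 (SE 0.205, adjusted p = 0.00177) and 1.56 (SE 0.205, adjusted p = 0.00338) in CTCF and control siRNA cells at 144 h.

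Of the kinetochore, centromere and chromosomal passenger genes all 6 rose at 24 h with either siRNA, with a median log2 difference of 1.51 in CTCF siRNA cells and 1.5 in control siRNA cells. HJURP, the chaperone that loads CENPA, rose by 1.61 in CTCF siRNA cells and 1.68 in control siRNA cells. CDCA8, which encodes borealin of the chromosomal passenger complex, had log2 values of 7.46 and 7.70 at 24 h, 6.96 and 6.61 at 72 h and 7.27 and 6.94 at 144 h in CTCF siRNA cells. Control siRNA cells had 7.50 and 7.69, 7.26 and 6.57 and 7.38 and 7.02 at these times, with 5.75 and 5.92 in untransfected cells. All siRNA arrays stood above the untransfected ones, the 24 h arrays were the highest within each siRNA, and the difference at 24 h was 1.75 (SE 0.21, adjusted p = 0.00098) in CTCF siRNA cells and 1.77 (SE 0.21, adjusted p = 0.000992) in control siRNA cells. RANGAP1, the GTPase activator of nuclear transport that also sits at kinetochores, moved least of this set, with 0.63 (SE 0.117, adjusted p = 0.00764) in CTCF siRNA cells and 0.53 (SE 0.117, adjusted p = 0.0194) in control siRNA cells at 24 h. CENPA, the histone H3 variant of centromeres, passed the threshold at 24 h with either siRNA and missed it at 72 and 144 h. At 144 h it had 0.36 (SE 0.18, adjusted p = 0.244) in CTCF siRNA cells and 0.63 (SE 0.18, adjusted p = 0.0826) in control siRNA cells. Its change from 24 to 144 h in control siRNA cells was -0.12 and was not called.

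Of the 8 measured spindle assembly genes 6 rose in CTCF siRNA cells and 5 in control siRNA cells at 24 h, the smallest share of any role on the control side. CKAP2L, a microtubule-associated protein of the spindle, had log2 values of 7.04 and 7.21 at 24 h, 6.95 and 6.33 at 72 h and 7.34 and 6.82 at 144 h in CTCF siRNA cells. With control siRNA they were 7.15 and 7.26, 6.99 and 6.40 and 7.07 and 6.91 at these times, with 5.61 and 5.99 in untransfected cells. Its siRNA arrays did not overlap the untransfected ones, and it differed by 1.33 (SE 0.234, adjusted p = 0.00589) in CTCF siRNA cells and 1.41 (SE 0.234, adjusted p = 0.00473) in control siRNA cells at 24 h. PSRC1, a microtubule-binding protein of the spindle, was the only member past the threshold in none of the 6 contrasts, and had log2 values of 4.72 and 5.04 at 24 h, 4.67 and 4.24 at 72 h and 4.84 and 4.39 at 144 h in CTCF siRNA cells. The values under control siRNA were 4.60 and 5.11, 4.53 and 4.34 and 4.71 and 4.69 at these times, with 4.09 and 4.22 in untransfected cells. Each of its siRNA arrays was above both untransfected arrays, and the difference at 24 h was 0.72 (SE 0.213, adjusted p = 0.0576) in CTCF siRNA cells and 0.70 (SE 0.213, adjusted p = 0.0713) in control siRNA cells. PSRC1 was the dimmest measured member, with a mean log2 value of 4.58 over all arrays. CKAP5, a microtubule polymerase, and CKAP2, a microtubule stabiliser, rose in 1 and 2 of the 6 contrasts.

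The 3 measured genes around ubiquitin ligases rose at 24 and 144 h with either siRNA, and CDC20 and CDCA3 at 72 h as well. CDC20, the activator of the anaphase-promoting complex, had log2 values of 8.74 and 8.97 at 24 h, 8.27 and 7.94 at 72 h and 8.55 and 8.17 at 144 h in CTCF siRNA cells. Control siRNA arrays gave 8.82 and 8.80, 8.22 and 8.12 and 8.71 and 8.40 at these times, with 7.10 and 7.26 in untransfected cells. The groups did not overlap between siRNA and untransfected cells, and CDC20 differed by 1.68 (SE 0.159, adjusted p = 0.000425) in CTCF siRNA cells and 1.63 (SE 0.159, adjusted p = 0.000512) in control siRNA cells at 24 h. G2E3, a ubiquitin ligase named for its G2 and M phase expression, had log2 values of 7.42 and 7.51 at 24 h, 7.42 and 7.43 at 72 h and 8.03 and 7.67 at 144 h in CTCF siRNA cells. Its control siRNA values were 7.6 and 7.47, 7.32 and 6.88 and 7.48 and 7.43 at these times, with 6.51 and 6.85 in untransfected cells. It rose in all 3 contrasts of CTCF siRNA cells, and at 24 and 144 h in control siRNA cells.

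Among chromosome and chromatin genes all 5 rose at 24 h in CTCF siRNA cells and 4 in control siRNA cells. MKI67, the Ki-67 proliferation antigen that coats mitotic chromosomes, had log2 values of 9.18 and 9.40 at 24 h, 9.14 and 8.56 at 72 h and 9.41 and 9.0 at 144 h in CTCF siRNA cells. For control siRNA they were 9.27 and 9.42, 9.17 and 8.44 and 9.23 and 9.18 at these times, with 7.88 and 8.10 in untransfected cells. Every siRNA array lay above the untransfected ones, CTCF and control siRNA arrays overlapped, and the difference at 24 h was 1.30 (SE 0.229, adjusted p = 0.00589) in CTCF siRNA cells and 1.35 (SE 0.229, adjusted p = 0.0051) in control siRNA cells. CDCA2, which recruits a phosphatase to chromatin at mitotic exit, had log2 values of 7.37 and 7.72 at 24 h, 7.19 and 6.64 at 72 h and 7.67 and 7.30 at 144 h in CTCF siRNA cells. Control siRNA cells had 7.50 and 7.62, 7.24 and 6.63 and 7.37 and 7.30 at these times, with 5.75 and 6.23 in untransfected cells. It too did not overlap, with 1.56 (SE 0.244, adjusted p = 0.00344) and 1.57 (SE 0.244, adjusted p = 0.00335) in CTCF and control siRNA cells at 24 h. TOP2A, the topoisomerase that untangles sister chromatids, had log2 values of 8.91 and 9.19 at 24 h, 9.09 and 8.28 at 72 h and 9.28 and 8.88 at 144 h in CTCF siRNA cells. With control siRNA they were 9.02 and 9.17, 9.14 and 8.64 and 9.24 and 9.18 at these times, with 7.85 and 8.34 in untransfected cells. Here replicate 2 of CTCF siRNA at 72 h fell between the untransfected arrays, and the 24 h difference was 0.95 (SE 0.26, adjusted p = 0.0429) in CTCF siRNA cells and 1.0 (SE 0.26, adjusted p = 0.0393) in control siRNA cells.

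SHCBP1, a midbody protein that binds the central spindle, had the largest difference of all members at 24 h with either siRNA, and ECT2, the exchange factor that activates RhoA in cytokinesis, rose with it. SHCBP1 had log2 values of 7.70 and 7.96 at 24 h, 7.11 and 6.74 at 72 h and 7.79 and 7.25 at 144 h in CTCF siRNA cells. The values under control siRNA were 7.78 and 7.80, 7.18 and 7.38 and 7.37 and 7.27 at these times, with 5.75 and 6.23 in untransfected cells. All siRNA arrays exceeded the untransfected ones, and SHCBP1 was 3.58-fold and 3.49-fold the untransfected level in CTCF and control siRNA cells at 24 h, a log2 difference of 1.84 (SE 0.209, adjusted p = 0.00073) and 1.8 (SE 0.209, adjusted p = 0.000844). The nuclear envelope genes TMPO, which encodes the LAP2 lamina proteins, and LBR, the lamin B receptor, both rose in control siRNA cells at 24 h. In CTCF siRNA cells at 24 h LBR rose and TMPO had 0.63 (SE 0.211, adjusted p = 0.0899).

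Other lists related to division were read in the same fit. Of all tested probe sets 5.42% rose in CTCF siRNA cells and 3.99% in control siRNA cells at 24 h, and 6.3% and 2.04% at 144 h. At 24 h 3.83% and 3.58% fell. Of 45 measured further mitosis genes 44 rose at 24 h in CTCF siRNA cells and 43 in control siRNA cells, and at 144 h 38 and 32 rose. PBK, a mitotic kinase, and CCNA2, cyclin A, were among the largest, with 1.67 and 1.52 in CTCF siRNA cells and 1.71 and 1.66 in control siRNA cells. Of 30 genes listed for S phase, the phase in which DNA is copied, 26 rose in CTCF siRNA cells and 27 in control siRNA cells at 24 h. At 144 h 25 and 21 rose. The median S phase log2 difference was 1.29 and 1.31 at 24 h, against 1.2 and 1.22 for the members. Of these genes DTL, EXO1, CLSPN and TYMS moved most in control siRNA cells, by 2.09, 2.01, 1.99 and 1.81. Of 22 listed regulators of G2 and M phase transcription 17 were measured, and E2F4, E2F5, NFYA, NFYB and NFYC had no named probe set. Of the 17, 12 rose and 1 fell in CTCF siRNA cells at 24 h, and 11 rose and 1 fell in control siRNA cells. MYBL2, the activating partner of the MuvB core, rose by 1.91 (SE 0.157, adjusted p = 0.000317) in CTCF siRNA cells and by 1.99 (SE 0.157, adjusted p = 0.000229) in control siRNA cells at 24 h. E2F8 and E2F7, repressors of the E2F family, rose by 1.57 (SE 0.18, adjusted p = 0.000736) and 1.67 (SE 0.205, adjusted p = 0.00107) in CTCF siRNA cells and by 1.70 (SE 0.18, adjusted p = 0.000619) and 1.69 (SE 0.205, adjusted p = 0.00103) in control siRNA cells. FOXM1, the forkhead activator of mitotic genes, rose by 1.19 (SE 0.161, adjusted p = 0.00168) and 1.12 (SE 0.161, adjusted p = 0.00226) in CTCF and control siRNA cells. The 1 regulator that fell was RBL2, the p130 pocket protein of DREAM, with -0.47 (SE 0.105, adjusted p = 0.019) in CTCF siRNA cells and -0.53 (SE 0.105, adjusted p = 0.0116) in control siRNA cells. Of 13 listed brakes on the cycle only 5 were measured. CDKN1A, CDKN1B, CDKN1C, CDKN2B, CDKN2C, CDKN2D, GADD45A and BTG2 had no named probe set. Among the 5 only CCNG2, a cyclin linked to arrest, passed. It fell at 24 h by 1.01 on the log2 scale with each siRNA (adjusted p = 0.00748 and 0.00825). No relation between these regulators and the members was tested.

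The counts against untransfected cells rested on few arrays. Without replicate 1 of the untransfected arrays, where 36 of the 43 genes lay lower than in replicate 2, the 24 h count was 17 in CTCF siRNA cells and 18 in control siRNA cells, and the 144 h count was 19 and 5. At 24 h the count was 14 without replicate 2 of the CTCF siRNA arrays, and 14 for control siRNA without replicate 2 of its own. At 144 h it was 16 without replicate 1 of the CTCF siRNA arrays, and for control siRNA 7 and 4 without its replicate 1 and 2. At 72 h the count for CTCF siRNA was 0 without replicate 1 of the untransfected or of the 72 h CTCF siRNA arrays, and 2 without replicate 2 of the 72 h CTCF siRNA arrays. It was 7 without untransfected replicate 2 or any 1 of the control siRNA arrays of 24 and 144 h. For control siRNA at 72 h it was 0 without either untransfected array or its replicate 1. It was 1 without its replicate 2 or any 1 of the control siRNA arrays of 24 and 144 h, and 2 without either 24 h CTCF siRNA array. The median log2 difference stayed at 0.88 or more in CTCF siRNA cells and 0.97 or more in control siRNA cells at 24 h under the omission of any 1 array.

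Within each siRNA nearly all members had their lowest mean at the middle time. In both siRNAs 42 of the 43 genes had their lowest group mean at 72 h, against 33.6% of all tested probe sets in CTCF siRNA cells and 32.1% in control siRNA cells. The order of 24 h highest, 144 h next and 72 h lowest held for 31 members in CTCF siRNA cells and 30 in control siRNA cells (18.4% and 19.6% of all). At 72 h against 24 h all 43 differences were negative with either siRNA, with a median of -0.48 in CTCF siRNA cells and -0.44 in control siRNA cells. The dip was not particular to the members. All 45 further mitosis genes (medians of -0.58 and -0.48) and all 30 S phase genes (-0.45 and -0.44) were likewise negative with either siRNA. In CTCF siRNA cells 1 member fell, where 0.224% of all tested fell, and 27 had an unadjusted p under 0.05, as did 15.1% of all tested. Of the other lists, MCM5 (S phase) and the regulator MYBL2 fell there too (limma, adjusted p = 0.0486 for each). In control siRNA cells none passed in limma (0.087% of all tested in either direction) and 21 had an unadjusted p under 0.05, as did 12.54% of all. The member that fell was GTSE1, a microtubule-binding regulator of p53 in G2, with log2 values of 6.09 and 6.37 at 24 h, 5.36 and 5.09 at 72 h and 6.14 and 5.5 at 144 h in CTCF siRNA cells. Control siRNA arrays gave 6.12 and 6.04, 5.70 and 5.53 and 6.08 and 5.82 at these times, with 4.93 and 4.73 in untransfected cells. In CTCF siRNA cells its 72 h arrays lay below its 24 h arrays with no overlap, with a difference of -1.0 (SE 0.178, adjusted p = 0.0486), and in control siRNA cells it differed by -0.46 (SE 0.178, adjusted p = 0.329). That call was lost when any 1 of the 12 siRNA arrays was left out. SHCBP1, CDC20 and PLK1 came next by adjusted p in CTCF siRNA cells, with -0.91 (SE 0.185, adjusted p = 0.0621), -0.75 (SE 0.152, adjusted p = 0.0621) and -0.80 (SE 0.175, adjusted p = 0.0771).

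At 144 h against 72 h 42 of the 43 differences were positive with either siRNA, with medians of 0.35 in both. Of the 45 further mitosis genes 44 and 45 were positive in CTCF and control siRNA cells, and of the 30 S phase genes 30 and 28. No member passed in limma, against 0.832% of all tested probe sets in CTCF siRNA cells and 0% in control siRNA cells, and 12 and 11 members had an unadjusted p under 0.05. Of all tested 11.54% and 6.21% did. The largest was KIF23 in CTCF siRNA cells, 0.65 (SE 0.166, adjusted p = 0.136). At 144 h against 24 h no member passed either (3.39% of all tested in CTCF siRNA cells and 0.248% in control siRNA cells), with medians of -0.17 and -0.12 and 7 and 2 members at an unadjusted p under 0.05. Of all tested 17.05% and 11.26% had such a p, so these counts were not above the background.

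**Figure D4:**
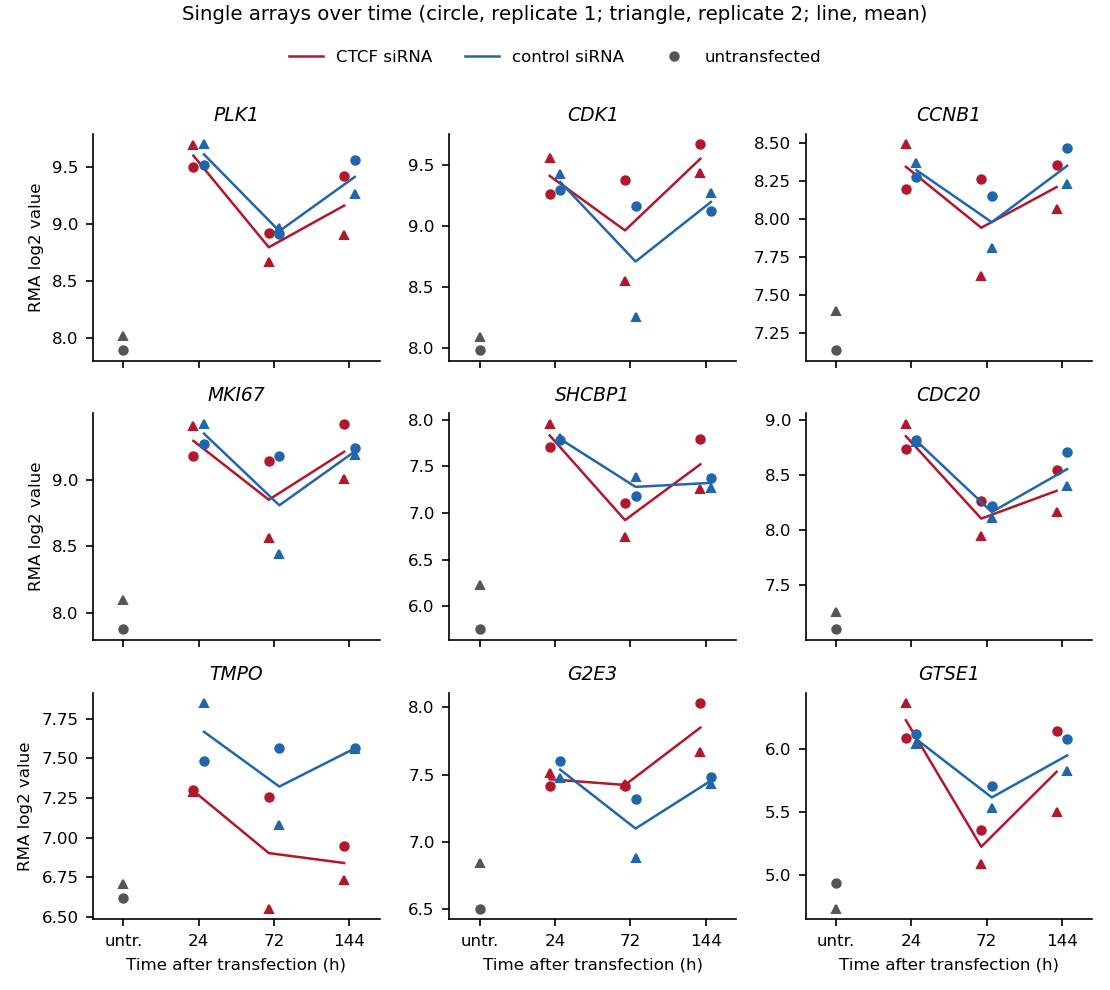
RMA log2 values of 9 genes in every array (red, CTCF siRNA; blue, control siRNA; grey, untransfected; circle, replicate 1; triangle, replicate 2) against time after transfection in h, with lines through the group means. The means dip at 72 h in most panels, replicate 2 at 72 h is often the lowest siRNA array, and in the TMPO panel the CTCF siRNA values lie low.

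The dip at 72 h was unequal between replicate numbers. In replicate 2 the members lay lower than in replicate 1 by a median of 0.55 in CTCF siRNA cells (41 of 43 genes lower) and 0.35 in control siRNA cells (39 lower) at 72 h, and by 0.38 (42 lower) and 0.13 (41 lower) at 144 h. At 24 h they lay higher in replicate 2, by 0.22 and 0.09, as they did in untransfected cells, by 0.26. Over all tested probe sets these medians were between -0.02 and 0.01. By replicate number the median difference of 72 h from 24 h was -0.11 in replicate 1 and -0.87 in replicate 2 of CTCF siRNA cells, and -0.21 and -0.69 in control siRNA cells. For 144 h against 24 h in CTCF siRNA cells the sign turned, with 0.13 in replicate 1 and -0.43 in replicate 2. The description codes number the 24 h arrays 3 and 4, so equal numbers may not be the same culture at 24 h and later, and the part of replicate culture in the time course was not tested.

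Between CTCF siRNA and control siRNA cells no member passed the threshold at any time. At 24 h the median log2 difference was -0.03, with 0.0124% of all tested probe sets called in either direction and 0 members at an unadjusted p under 0.05 in limma. At 72 h the median was -0.09 (0.186% of all called, 1 member at an unadjusted p under 0.05), and at 144 h it was -0.09 (3.76% called, 3 members under 0.05). Averaged over the 3 times, with 6 arrays against 6, the median was -0.06, with 2.58% of all called and 4 members under 0.05. Of all tested probe sets 6.03%, 8.03% and 16.4% had an unadjusted p under 0.05 at 24, 72 and 144 h and 15.7% on average, a larger share than among the 43 members each time. The members also had a larger SE, which holds the spread between replicate arrays, with a median of 0.186 at each time against 0.140 over all tested probe sets. The 95% intervals limit the size of any change. At 144 h the interval of 42 of the 43 genes lay within a 2-fold change in either direction, and for the average those of all 43 did, with bounds from -0.78 to 0.58 on the log2 scale. No member had its 6 CTCF siRNA arrays all above or all below the 6 control siRNA arrays (0.596% and 0.404% of all tested). At 24 h alone 1 member lay above and 1 below without overlap (18.7% and 17% of all). At 72 h 1 lay above and 4 below (16% and 19%), and at 144 h 4 above and 5 below (24.8% and 22.2%). The sign of the median depended on single arrays. At 24 h it ran from -0.27 without replicate 2 of the CTCF siRNA arrays to 0.22 without replicate 1, and at 72 h from -0.27 without replicate 1 to 0.11 without replicate 2. At 144 h it ran from -0.19 without replicate 1 to 0.02 without replicate 2, and on average from -0.15 without replicate 2 of the 24 h CTCF siRNA arrays to 0.03 without their replicate 1. Of the cell type markers 2 passed the test at 144 h and on average. At 144 h CD68 differed by 1.17 (SE 0.13, adjusted p = 0.00092) and FOLH1 by -0.61 (SE 0.109, adjusted p = 0.0138), and on average CD68 differed by 0.59 (SE 0.075, adjusted p = 0.00287) and FOLH1 by -0.35 (SE 0.063, adjusted p = 0.0202). The summed immune markers at 144 h were 12.2 to 13.3 in CTCF siRNA cells and 11.7 to 12.1 in control siRNA cells. Of the 3 measured immune markers only CD68 was higher in CTCF siRNA cells at 144 h, and 2 were lower, with CD14 lowest at -0.28. The part of these markers in the members' values was not tested.

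**Figure D5:**
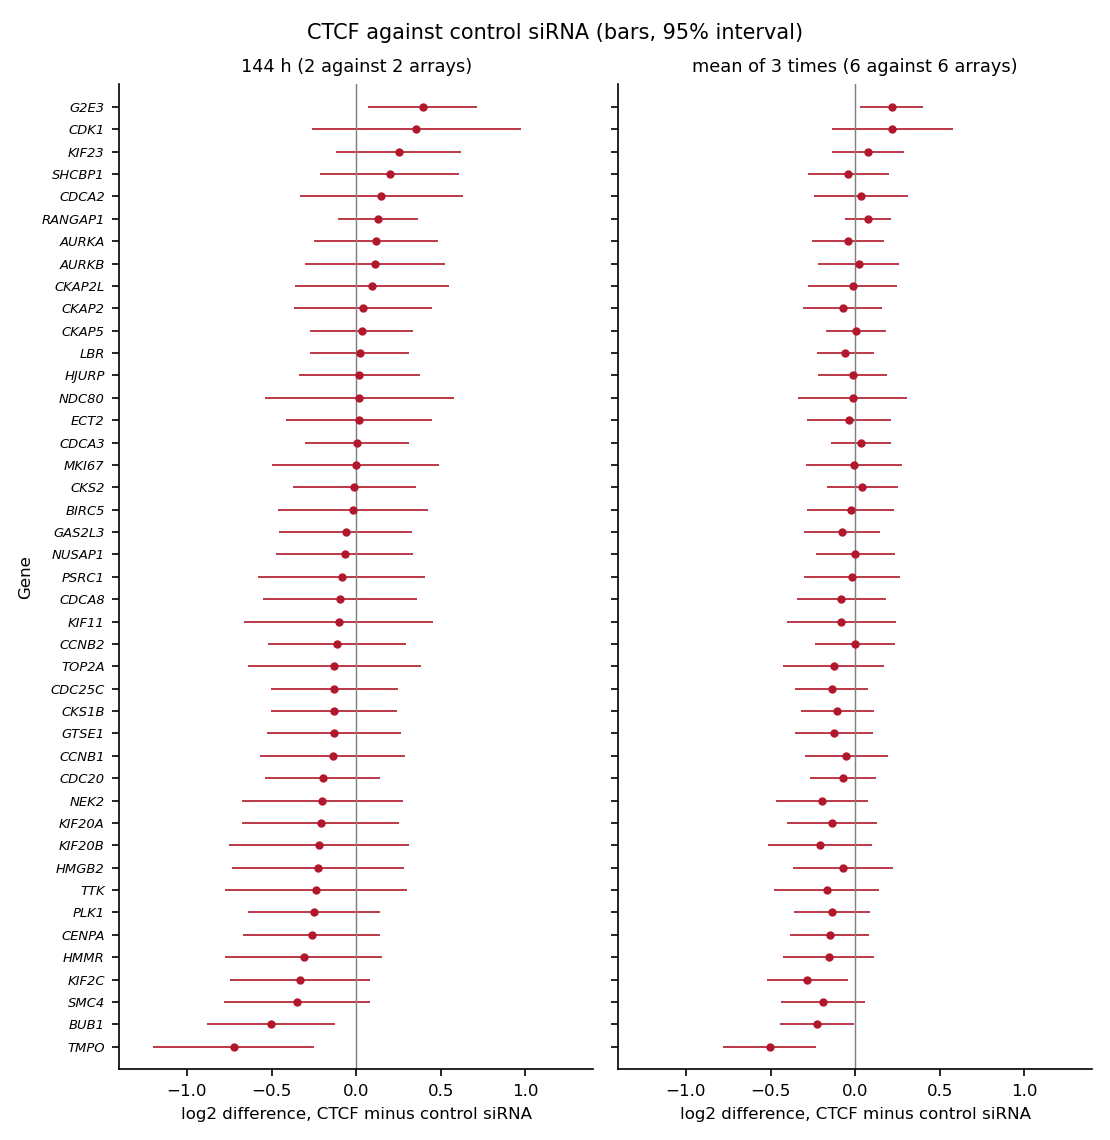
Log2 difference of CTCF siRNA minus control siRNA for each of the 43 genes at 144 h (left, 2 against 2 arrays) and averaged over the 3 times (right, 6 against 6 arrays), with bars for the 95% interval of the limma fit. No member passed an adjusted p of 0.05, and TMPO has the lowest value in both panels.

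TMPO had the smallest p of the members at 24 h, at 144 h and on average. Its log2 values were 7.30 and 7.29 at 24 h, 7.25 and 6.55 at 72 h and 6.95 and 6.73 at 144 h in CTCF siRNA cells. Its control siRNA values were 7.49 and 7.85, 7.57 and 7.08 and 7.57 and 7.56 at these times, with 6.62 and 6.71 in untransfected cells. The CTCF siRNA arrays lay below both control siRNA arrays at 24 and at 144 h and overlapped them at 72 h, and replicate 2 of CTCF siRNA at 72 h lay below the untransfected arrays. The difference was -0.72 (SE 0.214, adjusted p = 0.108) at 144 h (95% interval -1.2 to -0.25) and -0.51 (SE 0.124, adjusted p = 0.0689) on average. It passed the threshold on average without replicate 1 of the 24 h control siRNA arrays (-0.61, adjusted p = 0.0379) or of the 72 h CTCF siRNA arrays (-0.61, adjusted p = 0.0307). Against untransfected cells at 144 h TMPO had 0.18 (SE 0.211, adjusted p = 0.683) in CTCF siRNA cells and rose by 0.90 (SE 0.211, adjusted p = 0.0375) in control siRNA cells.

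BUB1, the spindle checkpoint kinase, had log2 values of 8.45 and 8.67 at 24 h, 8.34 and 7.81 at 72 h and 8.29 and 7.96 at 144 h in CTCF siRNA cells. For control siRNA they were 8.65 and 8.54, 8.44 and 8.0 and 8.65 and 8.61 at these times, with 7.13 and 7.6 in untransfected cells. Its CTCF siRNA arrays were below the control siRNA arrays at 144 h and overlapped them at 24 and 72 h, with a difference of -0.50 (SE 0.17, adjusted p = 0.16) at 144 h and -0.23 (SE 0.0982, adjusted p = 0.298) on average. For G2E3, whose values are given above, the CTCF siRNA arrays were above the control siRNA arrays at 72 and 144 h and overlapped them at 24 h, with 0.32 (SE 0.144, adjusted p = 0.618) at 72 h and 0.39 (SE 0.144, adjusted p = 0.198) at 144 h. KIF2C, a microtubule-depolymerising kinesin, had log2 values of 7.27 and 7.37 at 24 h, 7.07 and 6.49 at 72 h and 7.22 and 6.89 at 144 h in CTCF siRNA cells. Control siRNA cells had 7.34 and 7.61, 7.08 and 7.20 and 7.45 and 7.33 at these times, with 6.12 and 6.39 in untransfected cells. It lay below control siRNA without overlap at 72 and 144 h, mixed with it at 24 h, and differed by -0.28 (SE 0.107, adjusted p = 0.236) on average.

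The CTCF effect did not pass the test for a difference between times in any member. Between 72 and 24 h 0% of all tested probe sets passed, between 144 and 72 h 0.0186% and between 144 and 24 h 0.795%. In limma 1 member had an unadjusted p under 0.05 in these contrasts, where 5.37%, 8.39% and 10.8% of all tested did. It was G2E3, whose effect at 144 h exceeded that at 24 h by 0.46 (SE 0.204, adjusted p = 0.448). Of the lists related to division, the S phase list held 1 gene that differed between CTCF and control siRNA cells, UBR7 at 144 h, with 0.63 (SE 0.14, adjusted p = 0.038). That is 1 of 30 S phase genes (3.33%), where 3.76% of all tested probe sets were called at 144 h. None of the 45 further mitosis genes, 17 regulators or 5 brakes that were measured passed in limma at any time or on average. At 144 h 2 of each list had an unadjusted p under 0.05, as did 16.4% of all tested. The 2 of 45 and 2 of 17 lay under that share, and the 2 of 5 lay over it.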

How the data were processed

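Per the submitters' processing notes the authors worked in R 3.2.5. They applied RMA (background correction, quantile normalisation and median polish), and deposited log2 values for 53617 rows and 14 arrays. Scanner files were not analysed here, so distance from background is unknown. The platform annotation gave the gene names (16098 probe sets, 14884 symbols, 37519 rows unnamed), and the probe set with the highest mean stood for each gene. Arrays have no read depth and their number limits the precision, with a median standard error (SE) of 0.140 for CTCF against control siRNA and 0.145 against untransfected cells.

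Tests used limma 3.58.1 in R 4.3.3 (two-sided lmFit and eBayes fits, with p adjusted by Benjamini-Hochberg over all 16098 named probe sets and a threshold of 0.05). CTCF against control siRNA and time within siRNA came from the 12 siRNA arrays, and contrasts with untransfected cells from all 14, with the replicate number of the titles as a fixed block, since the study's model enters the pairing. Each p-value tests a difference between groups against the spread between arrays. That spread is pooled over all groups of the fit after the replicate block, and is drawn towards a common value over probe sets. Members and lists were chosen with earlier results of these data known, and the other lists were written from general knowledge. Values per array are given for the member of each role with the largest difference between control siRNA at 24 h and untransfected cells, for members called between CTCF and control siRNA or else the 3 with the smallest p, for members not called against untransfected cells, and for CDK1, CCNB1, MKI67, TOP2A, AURKA and PLK1. GTSE1, KIF2C, FOXM1, RBL2, UBR7, CD68, FOLH1, KLK2 and other single members with a difference were added after their values were seen. Alternatives changed the block, the rows tested, the centring, the prior, the arrays fitted and each array in turn. The scripts were tested on simulated data. Promoters were searched in Python 3.11.15.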

Additional observations from a re-analysis of the deposited data

How the results depend on the processing

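The replicate number was tested for pairing through the replicate differences of each pair of groups over all tested probe sets. Their correlation ran from -0.0856 to 0.228 and exceeded 0.1, the value taken for pairing, in only 2 of 21 pairs of groups. These were CTCF and control siRNA at 72 h and at 144 h. No pair of siRNA groups from different times and no pair with untransfected cells met that value. The study's model treats the replicates as paired in the time course, and the block was kept. Without the replicate block 648 probe sets were called between CTCF and control siRNA at 144 h, against 606 with it, and 130 against 72 for CTCF siRNA at 72 h against 24 h. For the change in CTCF effect between 144 and 72 h the counts were 14 without and 3 with the block. Counts of members called differed by less than 1.5 times between these fits in each contrast, and GTSE1 stayed past the threshold (adjusted p = 0.0497).

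No member called between CTCF and control siRNA became 1, TMPO, at 144 h when probe sets with a mean under the overall median were left out (adjusted p = 0.0489), with an intensity trend and robust prior (0.047) and with only the compared groups fitted (0.0324). On average it became 1, again TMPO, with the block from the description number (0.0402), without the dimmer probe sets (0.0283) and with the trend (0.0227). For control siRNA at 72 h against 24 h the count was 1 without the dimmer probe sets, 2 with the trend and 2 with only the compared groups. For CTCF siRNA at 72 h against 24 h it was 7 without the dimmer probe sets and 7 with the trend, and 0 with all rows tested, with only the compared groups and without both 72 h arrays of replicate 2, the last chosen after their values were seen. With the trend 1 member was called at 144 h against 72 h and 1 at 144 h against 24 h in CTCF siRNA cells. PSRC1 passed with the trend in control siRNA cells at 24 h against untransfected cells (limma, adjusted p = 0.0497). Against untransfected cells at 72 h the count was 0 with all rows tested for either siRNA, 21 without the dimmer probe sets and 21 with the trend for CTCF siRNA, and 16, 16 and, with only the compared groups, 22 for control siRNA. At 144 h it was 22 with only the compared groups for CTCF siRNA and 15 with all rows for control siRNA. Testing all 53617 rows adjusts over more probe sets by construction. The cause of the other changes was not tested.

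Leaving out each array in turn, the counts ran from 14 to 41 at 24 h, 0 to 14 at 72 h and 16 to 36 at 144 h for CTCF siRNA against untransfected cells, and from 14 to 41, 0 to 6 and 4 to 37 for control siRNA. They were 0 throughout for CTCF siRNA at 72 h against 24 h, 0 to 1 for the average of CTCF against control siRNA, and 0 in each other contrast. Members above both untransfected arrays numbered 34 to 43. The 144 h difference of CTCF from control siRNA changed sign, without a call, for 6 genes whose per-array or promoter data are shown. It ran from -0.0711 to 0.47 for SHCBP1, -0.058 to 0.25 for CKAP2L and -0.10 to 0.13 for HJURP, each lowest without replicate 1 and highest without replicate 2 of the 144 h CTCF siRNA arrays. It ran from -0.40 to 0.14 for GTSE1 and -0.33 to 0.16 for PSRC1 under the same omissions, and from -0.11 to 0.11 for MKI67, lowest without replicate 1 and highest without replicate 2 of the control siRNA arrays.

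With 2 arrays a group, a call depends on single arrays, as the omissions show. Values near background cannot be told from absence, since detection of probes is unknown here, and RMA compresses differences of dim probe sets. The untransfected time is not in the labels, and growth, cell number and cycle phase of the cultures were not measured in these files.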
